A study of Mus musculus with 2 samples.

Results

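Open chromatin was examined at 10 genes that mark the cells of the vessel wall in the newborn mouse heart. The genes were chosen by name, as 6 genes of the smooth muscle contractile apparatus (Tagln, Myh11, Cnn1, Smtn, Mylk and Lmod1) and 4 genes of pericytes (Pdgfrb, Rgs5, Abcc9 and Cspg4), out of 21911 protein-coding genes. DNase-seq, in which DNase I cuts accessible DNA in nuclei and the released ends are sequenced, was done on whole heart tissue of strain B6NCrl at postnatal day 0. The series holds 1 group of 2 libraries, replicates 1 and 2, with no treatment, genotype or second age. Both libraries carry the same donor label and separate biosample labels, and sex was not recorded, so an SD here measures a spread that may be technical.

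Vascular smooth muscle cells form the contractile layer of arteries, and pericytes sit on the outside of capillaries and small venules within the endothelial basement membrane. In smooth muscle, the transcription factor SRF binds the CArG box and works with the coactivators myocardin and the myocardin-related factors at many contractile genes. Pericytes are recruited by the platelet-derived growth factor PDGF-B, which endothelial cells release and pericytes sense through the receptor that Pdgfrb encodes.

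For each library the authors deposited peaks of 150 bp with a whole-number value, and hotspots, broader stretches of raised cutting that carry a −log10 of the q-value. On chromosomes 1 to 19, X and Y, replicate 1 had 164657 peaks and replicate 2 had 144708, with median values of 36 and 35 and highest values of 145 and 148. The sources used here give no read totals, so depth is unknown, no interval from counts was computed, and a missing peak does not show a closed site. A promoter peak has its centre within 500 bp of a transcription start site (TSS) of the gene, a gene-body peak lies elsewhere in the gene, and a flanking peak lies outside it within 50 kb. Markers of the other cells of the tissue were checked in the same way. All 4 cardiomyocyte, all 4 endothelial and all 4 fibroblast markers had a promoter peak in both libraries, beside 63.7% of all protein-coding genes. By mean value they ran from Tnni3 of cardiomyocytes (114 in replicate 1 and 110 in replicate 2) to Postn of fibroblasts (41 and 36). Of 3 macrophage markers (Csf1r, Ptprc and Adgre1), 0 had one in either library. Of the 3 markers foreign to heart, Alb and Myod1 had no promoter peak, and Neurod1 had one of value 16 in replicate 2 only. Gene-body peaks were called at Csf1r (2 in replicate 1 and 5 in replicate 2) and Ptprc (4 and 6). They were also called at Neurod1 (1 and 1) and Myod1 (2 and 0), and at neither Adgre1 nor Alb. In a whole tissue, fewer cells of a type and less opening per cell cannot be told apart at any site described here.

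The peaks of the members that hold a CArG box and were found in both libraries are shown first, because such sites carry the motif of the smooth muscle regulator SRF. The Smtn intron and Cspg4 boxes lie inside the peaks of both libraries. The Mylk box lies inside the peak of replicate 1 only, and the box of the Smtn flank, outside the gene at −24079 bp, inside that of replicate 2 only, with 36 in replicate 1 and 30 in replicate 2. Each sequence is written 5′ to 3′ on the strand of the gene, from GRCm38.p6 (mm10), with the CArG box in capitals.

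Smtn intron, chr11:3535716-3535865, minus strand: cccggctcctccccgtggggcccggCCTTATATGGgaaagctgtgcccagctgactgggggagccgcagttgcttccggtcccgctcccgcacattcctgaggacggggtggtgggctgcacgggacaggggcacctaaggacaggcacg
Cspg4 intron, chr9:56867016-56867165, plus strand: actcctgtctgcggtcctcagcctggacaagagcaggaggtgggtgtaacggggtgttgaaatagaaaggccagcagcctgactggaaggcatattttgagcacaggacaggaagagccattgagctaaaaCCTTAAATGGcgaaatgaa
Mylk intron, chr16:34957976-34958125, plus strand: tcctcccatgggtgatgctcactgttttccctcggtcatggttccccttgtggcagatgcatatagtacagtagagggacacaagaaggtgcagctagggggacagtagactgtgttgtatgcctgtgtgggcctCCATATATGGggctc
Smtn flank, chr11:3564616-3564765, minus strand: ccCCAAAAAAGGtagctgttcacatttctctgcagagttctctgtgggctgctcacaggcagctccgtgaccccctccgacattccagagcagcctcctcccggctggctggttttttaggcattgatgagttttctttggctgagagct

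The highest promoter peaks of the members are shown next, as the sites at the members' starts with the highest values, chosen after their values were seen. Bases annotated as UTR were left out, and CG dinucleotides are in capitals, since CpG content is compared with the peaks further on.

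Smtn, chr11:3539324-3539385, minus strand: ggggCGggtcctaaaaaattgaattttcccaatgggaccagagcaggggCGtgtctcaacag
Mylk, chr16:34745116-34745265, plus strand: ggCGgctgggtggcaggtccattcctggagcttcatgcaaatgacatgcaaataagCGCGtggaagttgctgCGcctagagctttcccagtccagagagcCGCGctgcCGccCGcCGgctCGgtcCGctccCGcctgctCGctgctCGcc
Cspg4, chr9:56864956-56865032, plus strand: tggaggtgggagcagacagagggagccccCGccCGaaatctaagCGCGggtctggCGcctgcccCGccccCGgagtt
Myh11, chr16:14291373-14291485, minus strand: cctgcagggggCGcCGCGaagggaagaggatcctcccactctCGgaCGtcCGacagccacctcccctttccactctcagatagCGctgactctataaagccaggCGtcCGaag
Abcc9, chr6:142702316-142702405, minus strand: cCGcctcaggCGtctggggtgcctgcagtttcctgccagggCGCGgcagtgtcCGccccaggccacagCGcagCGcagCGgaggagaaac

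The printed stretches differ in length, and per 100 bases they hold 3.23 CG dinucleotides in Smtn, 9.33 in Mylk, 9.09 in Cspg4, 7.96 in Myh11 and 8.89 in Abcc9. The Mylk stretch also holds 1 MCAT motif (CATTCC), which TEAD factors bind.

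Promoter peaks were called at 8 of the 10 members in both libraries, beside 63.7% of all protein-coding genes. All 10 members had one in replicate 1, beside 66% of protein-coding genes, and 8 had one in replicate 2, beside 65.2%. Tagln and Cnn1 had a promoter peak in replicate 1 only. A promoter peak in 1 library only, whichever the library, was found at 3.78% of protein-coding genes. Among the 8 members with a peak in both libraries the value was higher in replicate 1 at 8 of 8. Of all peaks matched between the libraries, 68.3% were lower in replicate 2. The share over the promoters of all protein-coding genes was not computed. Over the members, the highest promoter peak had median values of 59 in replicate 1 and 65.5 in replicate 2, against 88 and 84 over all protein-coding genes with a promoter peak. The members' replicate 2 median is over 8 genes, and the same 8 genes had a replicate 1 median of 72.5. Only Smtn and Mylk in replicate 1, and Smtn in replicate 2, lay above the median of all promoter peaks of their library.

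**Figure D1:**
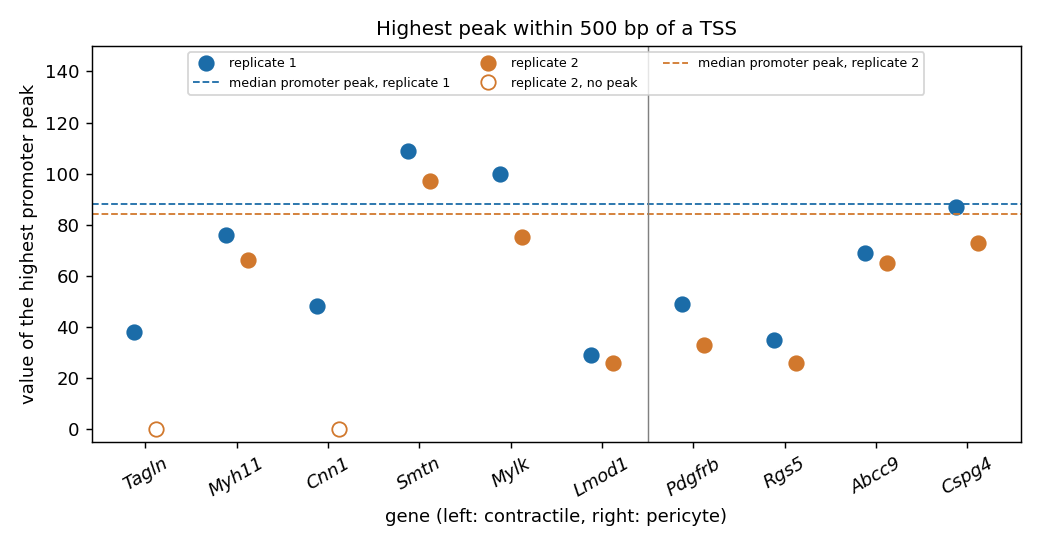
Value of the highest peak within 500 bp of a TSS (vertical axis, the authors' peak value) for each member (horizontal axis, contractile genes left and pericyte genes right of the line), with replicate 1 in blue and replicate 2 in orange. Open circles mark Tagln and Cnn1, which had no promoter peak in replicate 2, and the dashed lines are the medians of all promoter peaks, 88 in replicate 1 and 84 in replicate 2.

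Most member promoters were poor in CpG over the window used here. The ratio of observed to expected CpG within 500 bp of the principal TSS had a median of 0.57 over all protein-coding genes. It was under 0.5 at 8 members, beside 9841 of 21911 protein-coding genes. The other 2 were close to that mark, Smtn at 0.51 and Abcc9 at 0.52. Of the 8 members under 0.5, 6 had a promoter peak in both libraries, beside 29.2% of protein-coding genes under 0.5 and 91.9% of those at or above it. One of the 6 is Mylk, whose ratio was taken at the TSS of Mylk-201, while its peak stood at the start of Mylk-202. At the TSS where the ratio was taken, 5 of the 8 had a peak in both libraries. The ratio describes the whole window and not the peak. The printed stretches of Myh11 and Cspg4, both under 0.5, held 7.96 and 9.09 CG dinucleotides per 100 bases. The median value of the highest promoter peak was 59 in replicate 1 and 56 in replicate 2 for genes under 0.5, and 93 and 89 for the others.

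Smtn encodes smoothelin, an actin-binding protein of contractile smooth muscle cells, and is known to make a long vascular and a short visceral form from separate promoters. It lies at chr11:3517523-3540612 on the minus strand (ENSMUSG00000020439.17). Its highest promoter peak had a value of 109 in replicate 1 and 97 in replicate 2 (mean 103 ± 8.49, SD, n = 2). These stood at percentiles 98.1 and 96.6 of all peaks of their libraries, the highest standing among the members' promoter peaks in both. This peak lay at a cluster of coding TSSs about 1320 bp inside the annotated 5′ end of the gene, while the 5′-most TSS, that of Smtn-209, had no peak within 500 bp in either library. A second promoter peak lay at the start of Smtn-201, 12675 bp into the gene, with 78 in replicate 1 and 67 in replicate 2. The gene body held 3 peaks in each library, and each was found in both. An intronic pair 5021 bp and 4821 bp from the 5′ end had 98 and 97 in replicate 1, and 94 and 91 in replicate 2. The peak at 4821 bp is the one shown above with a CArG box, and its values were 97 and 91, beside 109 and 97 at the promoter peak. A hotspot at the highest deposited value of 100 covered 987 bp at these peaks in replicate 1 and 836 bp in replicate 2. The last shared peak lay in the final exon, with 48 in replicate 1 and 53 in replicate 2. Transcripts Gm11946 and Gm11947 overlap Smtn on the other strand, and DNase-seq does not tell strands apart.

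Myh11 encodes the smooth muscle myosin heavy chain, the most restricted marker of the mature smooth muscle cell. It lies at chr16:14194535-14291372 on the minus strand (ENSMUSG00000018830.10). Its promoter peak was centred at −39 bp from the 5′ end in both libraries, with 76 in replicate 1 and 66 in replicate 2 (mean 71 ± 7.07, SD, n = 2). The promoter hotspot was at 100 in both libraries and covered 493 bp in replicate 1 and 509 bp in replicate 2. The 96838 bp gene held 9 body peaks in each library, 8 of them shared. None of these reached the value of the promoter peak, the highest being 49 in replicate 1 and 41 in replicate 2. With the gene divided into 3 stretches of equal length, the middle stretch held 6 of 9 in replicate 1 and 5 of 9 in replicate 2. The leading introns were those with peaks 53861 bp, 37581 bp and 25701 bp from the 5′ end, with 48, 49 and 45 in replicate 1, and 41, 39 and 40 in replicate 2.

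Mylk encodes myosin light chain kinase, which phosphorylates the myosin regulatory light chain, and an internal promoter near its 3′ end is known to give the smooth muscle protein telokin. It is the longest member, 257211 bp at chr16:34745210-35002420 on the plus strand (ENSMUSG00000022836.11). The only promoter peak stood at the 5′ end of the gene, with 100 in replicate 1 and 75 in replicate 2 (mean 87.5 ± 17.7, SD, n = 2). The transcript that starts there, Mylk-202, is annotated as a retained intron and not as protein-coding. The principal coding transcript, Mylk-201, starts 39711 bp further in, and the peaks nearest to its TSS were 8170 bp away in replicate 1 and 8250 bp away in replicate 2. The short coding transcript at the 3′ end, Mylk-203, starts 249597 bp into the gene, and the nearest peaks were 1524 bp away in replicate 1 and 1504 bp away in replicate 2. With protein-coding TSSs alone, Mylk therefore had no promoter peak in either library, and the count of members with one in both was 7. Mylk held more body peaks than any other member, 32 in replicate 1 and 24 in replicate 2, with 20 and 21 of them found in the other library. Of 3 stretches of equal length, the last held 19 of these in replicate 1 and 10 in replicate 2, the middle one 10 and 12, and the first 3 and 2. Peaks of the last stretch had median values of 44 in replicate 1 and 49 in replicate 2, against 26 and 30 for the other body peaks. The highest pair lay 213641 bp into the gene, with 91 in replicate 1 and 97 in replicate 2 (mean 94 ± 4.24, SD, n = 2). Next came the peak at 222441 bp, with 93 in replicate 1 and 86 in replicate 2, and the peak at 179941 bp, with 89 and 70. The highest of these pairs is printed because its mean value, 94, was above that of the promoter peak. It holds 2 overlapping matches of the MCAT motif CATTCC, read here from the other strand and given in capitals, and was chosen after its values were seen.

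Mylk intron, chr16:34958776-34958925, plus strand: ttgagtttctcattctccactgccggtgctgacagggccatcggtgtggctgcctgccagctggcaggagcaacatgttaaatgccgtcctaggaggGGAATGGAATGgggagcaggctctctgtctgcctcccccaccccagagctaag

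The peak with the CArG box shown earlier lay 212841 bp into the gene, with 51 in replicate 1 and 54 in replicate 2. The widest hotspot of the gene body covered 1048 bp in replicate 1, around the highest pair, and was at 100. In replicate 2 the same stretch held a hotspot of 459 bp at 100 and one of 243 bp at 2.78. The antisense transcripts 1700119H24Rik, E130310I04Rik and Gm21691 overlap 3476 bp, 15820 bp and 3120 bp of Mylk, and a peak inside those stretches cannot be assigned to Mylk alone.

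Tagln encodes transgelin (SM22-alpha), an actin-associated protein and an early marker of smooth muscle that embryonic heart muscle also expresses. It is the shortest member, 6440 bp at chr9:45929619-45936058 on the minus strand (ENSMUSG00000032085.5). Its promoter peak had a value of 38 in replicate 1, at percentile 53.6 of all peaks of that library, and none was called in replicate 2. The promoter hotspot in replicate 1 covered 171 bp with a −log10 q of 2.52. A higher peak lay upstream at −1073 bp, over the same 150 bp in both libraries, with 71 in replicate 1 and 68 in replicate 2 (mean 69.5 ± 2.12, SD, n = 2). Its hotspot was at 100 in both libraries and covered 343 bp in replicate 1 and 298 bp in replicate 2. The gene body held no peak in replicate 1 and 2 overlapping peaks of 27 and 28 in replicate 2. The 3′ end of Tagln overlaps Pcsk7 by 108 bp, and the antisense transcript Gm48529 overlaps 3627 bp of it. The other strong peaks within 50 kb lay at promoters of other genes, led by Pcsk7 and Rnf214 with 95 in replicate 1 and 89 in replicate 2, Sidt2 with 95 and 87, and Pafah1b2 with 77 and 76.

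Cnn1 encodes calponin, which binds actin and restrains myosin ATPase activity. It lies at chr9:22099216-22109630 on the plus strand (ENSMUSG00000001349.5). In replicate 1 it had promoter peaks of 48 near the 5′ end and 32 near the start of Cnn1-202, and a promoter hotspot at 100 over 307 bp. In replicate 2 no promoter peak was called, and the peak nearest to the 5′ end was centred 3045 bp away. That upstream peak, at −3045 bp, lay over the same 150 bp in both libraries, with 86 in replicate 1 and 64 in replicate 2 (mean 75 ± 15.6, SD, n = 2). Its hotspot was at 100 over 356 bp in replicate 1 and at 4.25 over 260 bp in replicate 2. The gene body held no peak outside the promoter windows in either library. The upstream peaks of Tagln and Cnn1 are printed because both are the highest peaks within 5 kb of genes whose TSS peak was called in 1 library, and they were chosen after their values were seen. Capitals mark the AP-1 motif TGANTCA, the only exact match among the 5 motifs searched in either of them. With 1 mismatch allowed, the Cnn1 stretch also holds a CArG box and the Tagln stretch does not. Such a box is in 10.8% of all peaks.

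Tagln upstream, chr9:45937056-45937205, minus strand: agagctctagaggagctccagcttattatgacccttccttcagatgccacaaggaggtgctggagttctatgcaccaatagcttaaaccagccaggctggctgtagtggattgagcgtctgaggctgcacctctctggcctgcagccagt
Cnn1 upstream, chr9:22096096-22096245, plus strand: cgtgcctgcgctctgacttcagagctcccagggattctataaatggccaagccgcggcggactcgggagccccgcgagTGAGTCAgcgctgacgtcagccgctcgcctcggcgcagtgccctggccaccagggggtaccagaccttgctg

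The stretch upstream of Cnn1 holds 14 CG dinucleotides at 67.3% GC, and the one upstream of Tagln holds 1 at 54.0% GC.

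Lmod1 encodes leiomodin 1, which nucleates actin filaments in smooth muscle. It lies at chr1:135324807-135368065 on the plus strand (ENSMUSG00000048096.7). Its promoter peak was the lowest of the contractile members in replicate 1 and of those with a promoter peak in replicate 2, with 29 and 26 (mean 27.5 ± 2.12, SD, n = 2). This lay below the median of all peaks in both libraries, and the hotspot there had a −log10 q of 1.90 in replicate 1 and 1.84 in replicate 2. The gene body held 4 peaks in replicate 1 and 1 in replicate 2, and the 1 shared pair, in the last exon, had 43 and 38. A stronger peak lay just past the 3′ end, 346 bp from it in replicate 1 and 326 bp in replicate 2, with 84 and 74. Its hotspot was at 100 in both libraries, over 326 bp in replicate 1 and 324 bp in replicate 2. Within 50 kb the only higher peak was at the promoter of Timm17a, with 114 in replicate 1 and 106 in replicate 2.

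**Figure D2:**
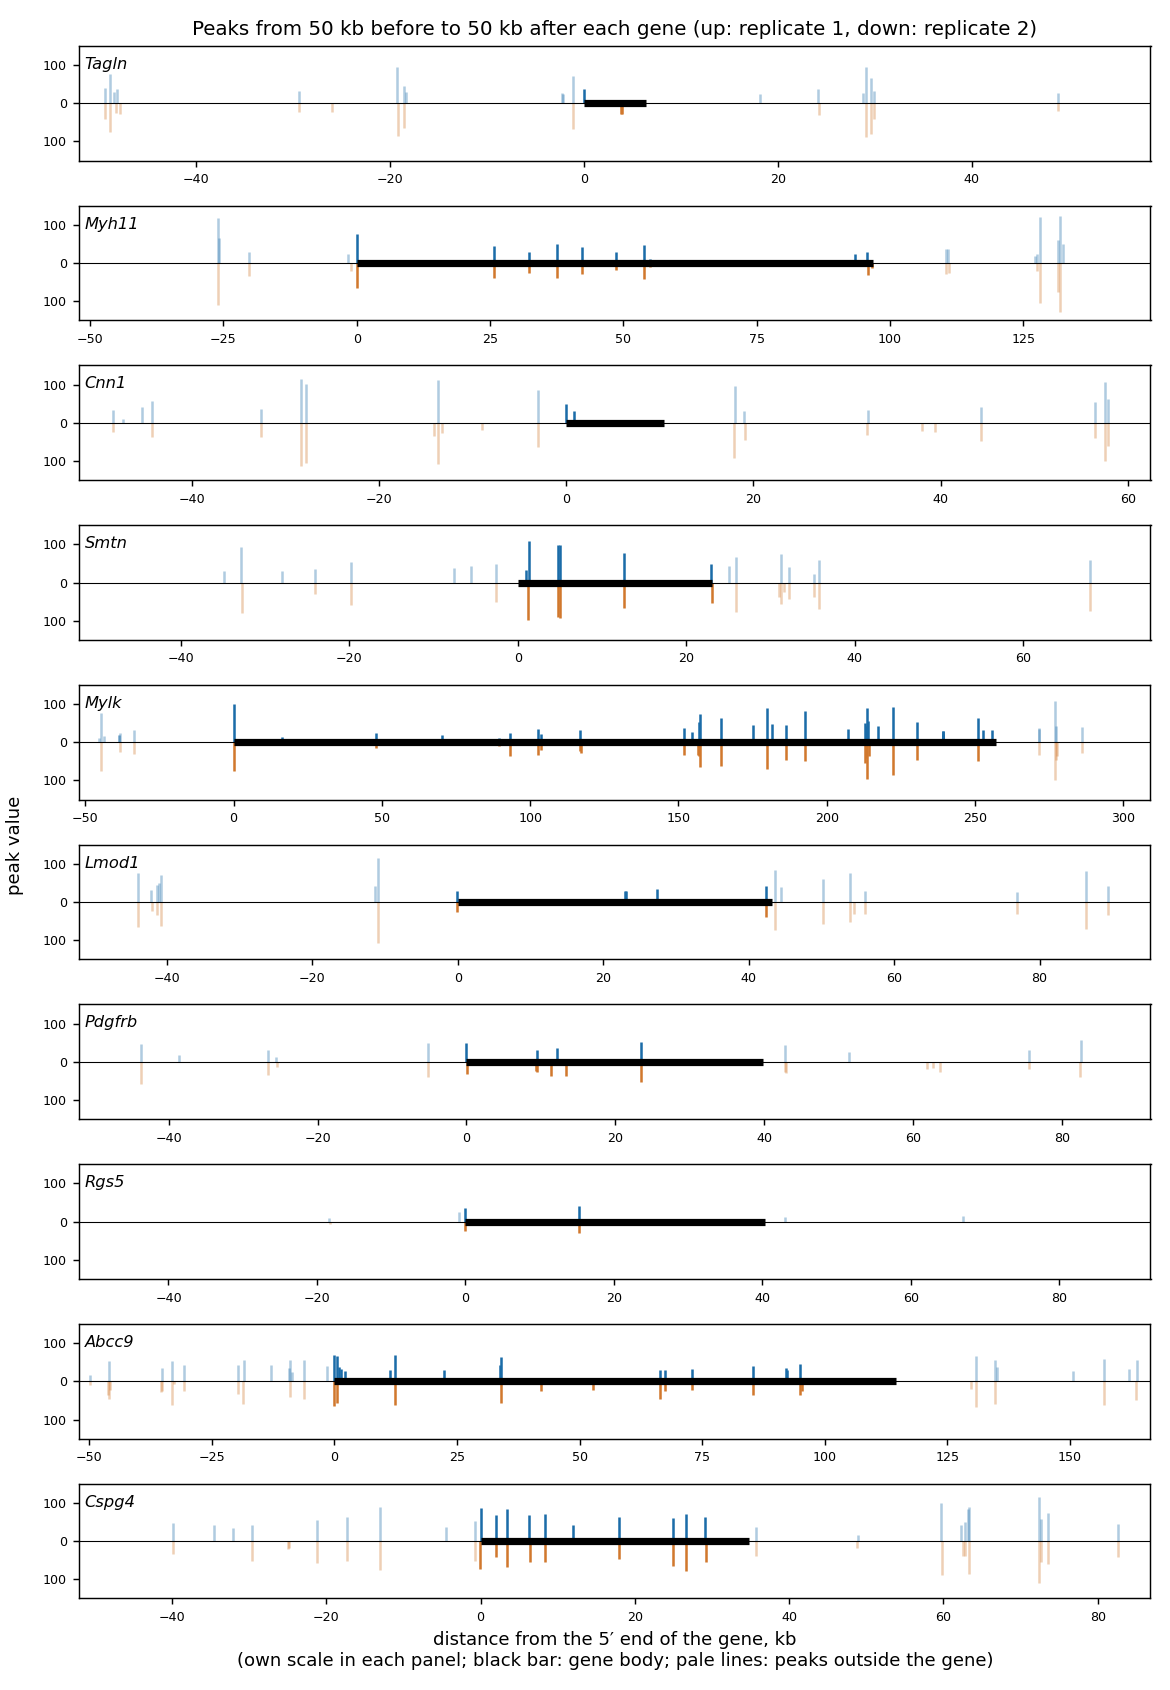
Peaks along each member, from 50 kb before to 50 kb after the gene, with distance from the 5′ end in kb on the horizontal axis and the peak value on the vertical axis (replicate 1 in blue upward, replicate 2 in orange downward). The black bar is the gene and pale lines are peaks outside it. Of 3 stretches of equal length in Mylk, the first holds the fewest body peaks in both libraries. Cspg4 has peaks along most of its body, and Tagln and Cnn1 have their shared peaks outside the gene. Rgs5 has 6 peaks in replicate 1 and 3 in replicate 2 in all.

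Among the pericyte genes, Cspg4 encodes the proteoglycan NG2, a surface marker of pericytes that oligodendrocyte precursors of the brain also carry. It lies at chr9:56865033-56899870 on the plus strand (ENSMUSG00000032911.6). Its promoter peak had 87 in replicate 1 and 73 in replicate 2 (mean 80.0 ± 9.90, SD, n = 2). A TSS of Odf3l1 lies 354 bp away on the other strand, so this peak cannot be assigned to either gene. The promoter hotspot was at 100 over 512 bp in replicate 1 and at 5.30 over 297 bp in replicate 2. The body held 9 peaks in replicate 1 and 8 in replicate 2, and 8 were shared. This was 2.58 and 2.30 body peaks per 10 kb of gene, a higher density than 93.8% of protein-coding genes in both libraries. The body peaks were also high, with 8 of 9 in replicate 1 and 6 of 8 in replicate 2 at a value of at least 50. The highest had 83 in replicate 1 and 69 in replicate 2 at 3458 bp, and 71 and 78 at 26578 bp from the 5′ end. The CArG box shown above lay in a peak 2058 bp from the 5′ end with 68 in replicate 1 and 42 in replicate 2, the largest drop among the body pairs of this gene. Outside the gene, a peak 24901 bp past its 3′ end in replicate 1 had 100, and its partner in replicate 2 had 90. Neither lay at the promoter of another protein-coding gene.

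Abcc9 encodes SUR2, the regulatory subunit of the ATP-sensitive potassium channel, which is made by pericytes and smooth muscle and also by heart muscle. It lies at chr6:142587862-142702315 on the minus strand (ENSMUSG00000030249.15). The promoter had 2 peaks in each library, of 69 and 66 in replicate 1, and 65 and 58 in replicate 2, and the higher of them averaged 67 ± 2.83 (SD, n = 2). The promoter hotspot was at 100 over 934 bp in replicate 1. Replicate 2 had 2 promoter hotspots, at 3.65 over 249 bp and at 2.94 over 302 bp. The body held 15 peaks in replicate 1 and 10 in replicate 2, with 7 shared. The highest shared body peaks lay 12464 bp into the gene, with 69 in replicate 1 and 63 in replicate 2, and 34064 bp into it, with 64 and 58. Both were intronic, with values close to those of the promoter peaks. Kcnj8, which encodes the pore-forming subunit of the same channel, lies downstream, and its promoter peak had 67 in both libraries, 16351 bp past the 3′ end of Abcc9 in replicate 1 and 16331 bp past it in replicate 2. The antisense transcript 5330439B14Rik overlaps 11868 bp of Abcc9.

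Pdgfrb encodes the receptor for PDGF-B and is made by pericytes, smooth muscle and many fibroblasts. It is annotated on chromosome 18 over 39912 bp (ENSMUSG00000024620.11). Its promoter peak had 49 in replicate 1 and 33 in replicate 2 (mean 41.0 ± 11.3, SD, n = 2). These stood at percentiles 70.0 and 46.8 of all peaks of their libraries. The hotspot there was weak, with a −log10 q of 2.43 in replicate 1 and 3.16 in replicate 2. The body held 3 peaks in replicate 1 and 5 in replicate 2, with none in the last of 3 stretches of equal length. The peak 23401 bp from the 5′ end in replicate 1 had 52 and its partner in replicate 2 had 53, higher than the promoter peak in both. Within 50 kb, 9 peaks were called in replicate 1 and 11 in replicate 2, none of them at the promoter of another protein-coding gene.

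Rgs5 encodes a regulator of G protein signalling and is among the best-known transcripts of pericytes. It lies at chr1:169655501-169695813 on the plus strand (ENSMUSG00000026678.10). Its promoter peak, at −50 bp in both libraries, had 35 in replicate 1 and 26 in replicate 2 (mean 30.5 ± 6.36, SD, n = 2). A single intronic peak was shared, with 40 in replicate 1 and 30 in replicate 2, and its hotspot was at 100 in replicate 1 and at 4.48 in replicate 2. Rgs5 had the fewest peaks of all members, with 4 flanking peaks in replicate 1 and 1 in replicate 2. Of protein-coding genes, 22.3% in replicate 1 and 10.4% in replicate 2 had fewer peaks within 50 kb.

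Within 500 bp of a TSS, 8 of 10 members, all but Tagln and Cnn1, had a hotspot in both libraries, beside 64.5% of protein-coding genes. The hotspot was at the highest deposited value of 100 in both libraries at 3 members (Myh11, Smtn and Mylk), beside 52.4% of protein-coding genes. At Abcc9 and Cspg4 it was at 100 in replicate 1 only, and at Lmod1, Pdgfrb and Rgs5 it was under 4 in both.

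Over all members, 14 promoter peaks, 76 body peaks and 141 flanking peaks were called in replicate 1, and 10, 63 and 123 in replicate 2. Body peaks were mostly intronic, 70 of 76 in replicate 1 and 58 of 63 in replicate 2. Of the flanking peaks, 40 in replicate 1 and 34 in replicate 2 lay at promoters of other protein-coding genes, and these include the highest ones. Near Myh11, for example, peaks of 122 in replicate 1 and 129 in replicate 2 lay at the Marf1 promoter, and peaks of 119 and 110 lay at the Fopnl promoter. Near Cnn1 the leading peaks lay at the promoter of Zfp653 and the transcript Gm49318, with 114 in replicate 1 and 112 in replicate 2, and at that of Ecsit, with 111 and 108. At Smtn the highest flanking peak lay at no promoter of another protein-coding gene. It was at −32779 bp in replicate 1 with 94 and at −32759 bp in replicate 2 with 80. Promoters of noncoding genes were not searched for in the flanks. A body peak was present in both libraries at 8 members, all but Tagln and Cnn1, beside 53.2% of protein-coding genes. The body peak density was above the median protein-coding gene of the library in both libraries at 6 members, beside 43.7%. Of the members, 8 are longer than the median protein-coding gene of 17433 bp, and the part of gene length in these counts was not tested. The median member had 15 flanking peaks in replicate 1 and 12.5 in replicate 2, against 10 and 9 over all protein-coding genes.

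**Figure D3:**
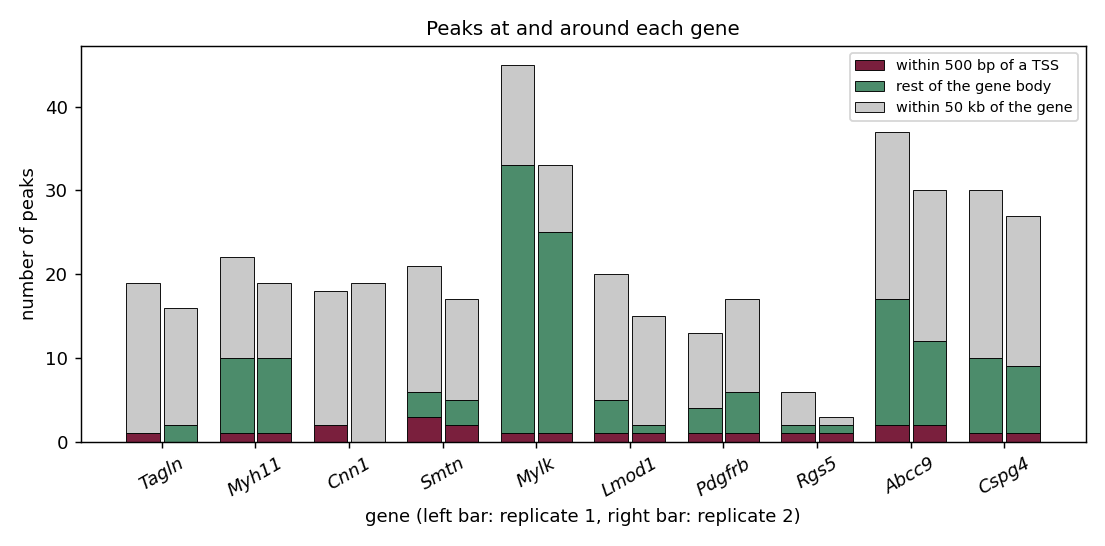
Number of peaks (vertical axis) within 500 bp of a TSS, in the rest of the gene and within 50 kb of it, for each member (horizontal axis), with replicate 1 as the left bar and replicate 2 as the right bar. Mylk has the most body peaks, 32 and 24, and Rgs5 the fewest peaks in all, 6 and 3.

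Of the members' peaks, 70.1% of the 231 in replicate 1 and 83.7% of the 196 in replicate 2 overlapped a peak of the other library by at least 1 bp, against 70.1% and 79.8% of all peaks. At the 60 pairs of promoter and body peaks the median log2 ratio of replicate 2 over replicate 1 was −0.18, and 48 of 60 (80.0%) were lower in replicate 2. At the 99 pairs of flanking peaks the median was −0.09, and 64 of 99 (64.6%) were lower in replicate 2. Over all 113712 paired peaks the median was −0.14, and 68.3% were lower in replicate 2. The median was −0.17 at 37 pairs of the contractile genes and −0.25 at 23 pairs of the pericyte genes. No scaling of the peak value for depth is stated, so a ratio between libraries is not a difference in accessibility.

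**Figure D4:**
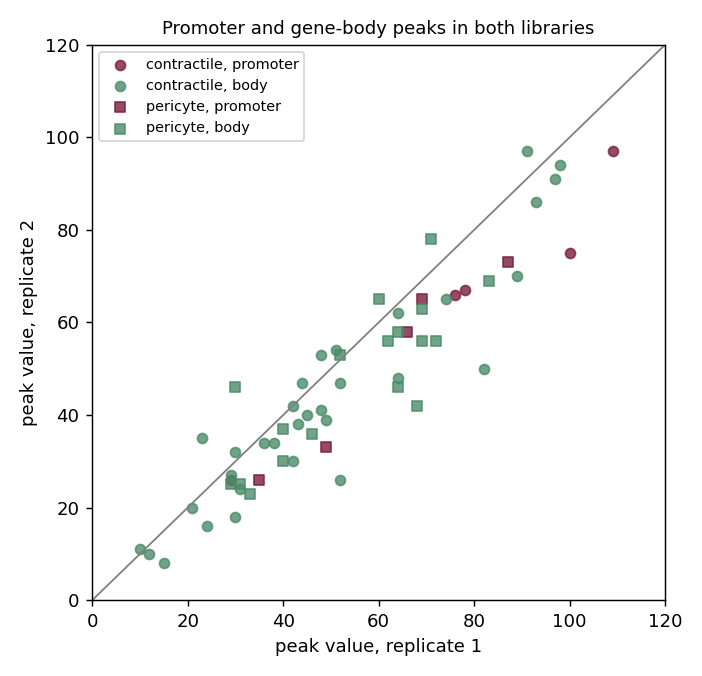
Value in replicate 2 (vertical axis) against value in replicate 1 (horizontal axis) for the 60 promoter and body peaks of the members found in both libraries, with circles for contractile and squares for pericyte genes. Most points, 48 of 60, lie below the diagonal of equal values.

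Motifs were searched on both strands of the 101 distinct promoter and body peaks of the members and of all 193914 distinct peaks. The CArG box, a site of 10 letters, was present in 8 of the 101 (7.92%), against 0.85% of all peaks and 0.80% of the promoter and body peaks of all protein-coding genes. The MCAT motif (CATTCC) was found in 12.9% of the members' peaks and 10.9% of all peaks, and the AP-1 motif (TGANTCA) in 7.92% and 7.16%. The RBPJ motif of Notch signalling (GTGGGAA) was found in 5.94% of the members' peaks and 3.61% of all peaks, and the MEF2 site in 0.99% and 1.70%. These peaks held 7 distinct CArG boxes, since overlapping peaks of Mylk share 1 of them. The boxes lay in 6 members: Tagln, Cnn1, Smtn, Mylk, Lmod1 and Cspg4. The share of all protein-coding genes with a box in such a peak was not computed, so this count has no background beside it. The boxes of Smtn and Cspg4 lay inside peaks of both libraries. The others lay inside peaks of replicate 1 only, and 4 of those peaks were low, with 38 at Tagln, 32 at Cnn1, 29 at Lmod1 and 29 at the 3′ box of Mylk. With 1 mismatch allowed the box was in 14.9% of the members' promoter and body peaks and 10.8% of all peaks. In the 300 bp before the principal TSS, a CArG box was present at 1 member, Tagln, at −112 bp and outside any peak, beside 1.58% of protein-coding genes. A match is a string of letters and is not a bound site.

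**Figure D5:**
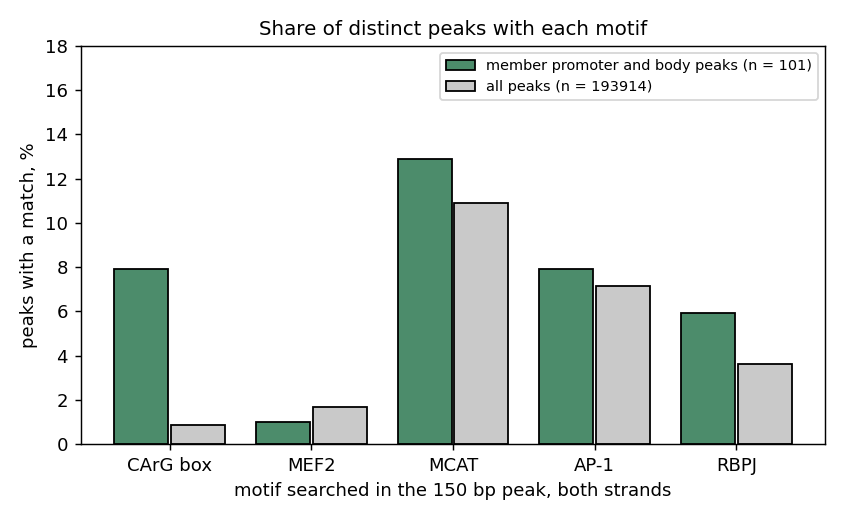
Share of distinct 150 bp peaks (vertical axis, %) that hold each motif on either strand (horizontal axis), for the 101 promoter and body peaks of the members and all 193914 peaks. The CArG box is in 7.92% of the members' peaks and 0.85% of all peaks, and the shares of the other 4 motifs are closer together. Of the boxes in the members' peaks, only those of Smtn and Cspg4 lay inside peaks of both libraries. A Mylk box is counted in overlapping peaks.

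Other genes of the same pathways were counted from lists in the same way, by a promoter peak in both libraries, beside 63.7% of all protein-coding genes. Of 12 further contractile genes 11 had one. The highest by mean percentile were Vcl (vinculin, 122 in replicate 1 and 115 in replicate 2), Csrp1 (a LIM domain protein of smooth muscle, 103 and 82) and Myl9 (the regulatory light chain that Mylk phosphorylates, 80 and 77). The exception was Actg2, the enteric smooth muscle actin, with no promoter peak in either library. Of 12 further pericyte genes 8 had one, led by Art3 (98 in replicate 1 and 88 in replicate 2), Gja4 (the gap junction protein connexin 37, 73 and 70) and Kcnj8. Vtn, Higd1b and Cox4i2 had none in either library, and Ndufa4l2 had one of 29 in replicate 2 only. Of 12 regulators of smooth muscle 11 had one, led by Mrtfa (a myocardin-related coactivator, 126 in replicate 1 and 118 in replicate 2), Srf itself (120 and 121) and Gata6 (119 and 108). The exception was Foxf1, with 27 in replicate 1 only, named after its value was seen. All 5 PDGF ligands and receptors beside Pdgfrb had one, led by Pdgfa (100 in replicate 1 and 88 in replicate 2), Pdgfra (75 and 67) and Pdgfd (75 and 66).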

How the data were processed

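DNase-seq was done on newborn heart of strain B6NCrl in 2 libraries of 1 group, per the labels. Per the deposited text files, regions were called in each replicate on its own, from filtered mm10 alignments. The sources used here name no aligner, caller, version or threshold, and a threshold decides whether a weak site is listed. Each peak deposited by the authors has a signal value with no stated scaling. Each hotspot deposited by the authors has a −log10 q-value, from 1.30 up and then exactly 100, and the hotspot score column was not used. Depth is unknown, so precision rests on the spread between 2 libraries.

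Genes and TSSs came from GENCODE vM21 and sequence from GRCm38.p6, whose primary sequence is that of mm10, with coordinates counted from 1. Peaks on chromosomes 1 to 19, X and Y were classed by their centre and matched between libraries by an overlap of at least 1 bp. For motifs, a matched pair was counted once, in the interval of replicate 1. Percentiles of peaks are average ranks within the library, in which tied values count in part. Those of genes are the share of genes with a lower value. The counting of promoter peaks was tested on simulated data. Python 3.11.15, numpy 2.4.6, pandas 2.3.3 and matplotlib 3.10.9 were used. With 1 group no test between groups was possible, so most counts stand beside the same count over all protein-coding genes, with no p-value.

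All 10 members are named, with the 3 genes of each pathway list that had the highest promoter peaks by percentile, those with none, and neighbours that share or overlap a member or hold 1 of the 3 highest peaks within 50 kb. The members, lists and motifs were chosen with earlier results of these data known. Alternatives covered the promoter window, the TSS set, the peak and hotspot thresholds, equal numbers of peaks, the overlap, the flank, the CArG search and each library left out.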

Additional observations from a re-analysis of the deposited data

How the results depend on the processing

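Of 41 recomputed values, 32 stayed within 1.5 times the reported count or within the spread between libraries. Where the reported value is a mean over both libraries, leaving 1 out always stays within that spread. Those values therefore could not count as changed. A count of 8 among 10 members also cannot rise by 1.5 times. With the higher 50% of peaks, promoter peaks in both libraries were found at 5 members (8 as reported), and the mean number of peaks over the libraries was 39.0 in gene bodies (69.5) and 81.0 within 50 kb (132). With protein-coding TSSs only, the members' median promoter value averaged over libraries was 57.0 (62.25). With hotspots at 100 only, 3 members had one in both (8). The flanking count was 51.0 within 20 kb and 242.5 within 100 kb. A CArG box was in 3.42% of all distinct member peaks, flanks included, and in 12.2% with at most 1 mismatch. With each library left out in turn, that share lay between 1.53% (without replicate 1) and 3.90%, members with a promoter peak between 8 and 10, members with a promoter hotspot between 8 and 10, body peaks between 63 and 76, flanking peaks between 123 and 141, the median promoter value between 59 and 65.5, and the density count was 7 either way. The lower share without replicate 1 goes with the fact that 5 of the 7 boxes in promoter and body peaks lay inside peaks of that library alone. No paired analysis was possible because the series has 1 group. Depth is unknown, so a site missing from a list cannot be told from one below the caller's threshold.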
